A study of Mus musculus with 16 samples.

Results

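The genes of the cytosolic large ribosomal subunit were followed through 3 kinds of RNA from mouse gastrocnemius, the large calf muscle. A probe was counted as a member if the array design named it Rpl followed by a number, with or without the letter a or x, or Rplp followed by 0, 1 or 2. This gave 112 probes of 45 genes, among 15903 gene names tested in all. Of these probes 107 passed the filter on low signal, and the brightest probe of each gene stood for it. All 45 of the probes that stood for a gene were well above background on all 16 arrays.

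Mice of 2 genotypes were compared, wild-type littermates (WT) and mice with a germline heterozygous deletion of Eif6 (Het, Eif6+/-), 3 animals each. All were males on a C57BL6 background, 8 to 16 weeks old and fed laboratory chow freely, and no treatment was named. The deletion is carried in all tissues, so muscle fibres are not its only site. RNA was taken from whole muscle and from sucrose gradients of muscle lysate prepared with cycloheximide, which holds ribosomes on their transcripts. The polysome groups hold pooled fractions of transcripts that carry several ribosomes, and the monosome groups hold transcripts sedimenting with a single ribosome. Whole-muscle and polysome groups had 3 arrays each, WT monosome had replicates 1 and 2, and Het monosome had replicates 1 and 3. The description of the study states that its own analysis used the whole-muscle and polysome arrays. Arrays with the same genotype and replicate number came from the same mouse. A whole muscle holds blood, immune, connective and fat cells beside fibres, so fewer cells of a type and less RNA per cell cannot be told apart.

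The large subunit carries the peptidyl transferase centre, where peptide bonds form, and the tunnel through which the new chain leaves. Most of its proteins are needed in equal numbers, and most of their mRNAs begin with a cytosine and a stretch of pyrimidines, the terminal oligopyrimidine (TOP) motif, through which growth signals such as mTOR control whether they are loaded with ribosomes. The protein eIF6 binds the face of the large subunit that meets the small subunit, keeps free subunits apart, and is released late in the making of the subunit.

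The TOP motif can be read in the RefSeq start sites of some members. Of the 45 genes, 33 matched a start site in the RefSeq table (GRCm38.p6). A C followed by at least 4 C or T bases, read on the strand of the gene, began exactly at 7 of the 39 start sites of these genes (17.9%), each of another gene. The same letters stood there in 2.51% of all 32851 start sites. Within 5 bases of the start they were found at 18 of the 39 sites (46.2%), in 16 genes, and at 18.3% of all start sites. The windows of the 7 genes are shown because they let the motif be set beside the polysome values of the same genes. Each window holds 15 bases before and 15 bases from the start, 5′ to 3′, and capitals mark the unbroken run of pyrimidines that begins at the start.
Rpl14, chr9:120571502-120571531, plus strand: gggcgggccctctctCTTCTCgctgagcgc
Rpl15, chr14:18270972-18271001, minus strand: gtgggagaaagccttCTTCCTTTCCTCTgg
Rpl28, chr7:4792950-4792979, plus strand: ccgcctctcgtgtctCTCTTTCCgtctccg
Rpl35, chr2:39005117-39005146, minus strand: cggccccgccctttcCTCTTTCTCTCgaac
Rpl35a, chr16:33056467-33056496, plus strand: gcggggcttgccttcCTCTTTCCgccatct
Rpl38, chr11:114668565-114668594, plus strand: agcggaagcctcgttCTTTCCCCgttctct
Rplp2, chr7:141447636-141447665, plus strand: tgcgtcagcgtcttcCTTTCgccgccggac

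The 75th percentile of the processed signal ranged from 12.7 to 150.1 over the 16 arrays, and every Het whole-muscle array was dimmer than every WT whole-muscle array. No spot was saturated. The Eif6 signal was 9.66, 9.15 and 8.97 in WT whole muscle and 8.39, 8.40 and 8.21 in Het, and in polysome and monosome RNA as well every Het array lay below every WT array. The difference was -0.93 ± 0.29 (SE, adjusted p = 0.611) in whole muscle, -1.32 ± 0.29 (SE, adjusted p = 0.516) in polysomes and -1.82 ± 0.35 (SE, adjusted p = 0.0451) in monosomes, and whether the probe lies in the deleted part of the gene is not given in the sources used here. Muscle fibre markers were bright throughout, with a median log2 signal of the 8 markers between 14.4 and 16.2. Arrays WT polysome 2 and WT monosome 2, from the same mouse, stood apart. The 5′ end of transcripts was set against the 3′ end with 233 probe pairs spaced by 500 bases or more. The 5′ probe was dimmer by a median log2 difference of -1.76 to -1.19 on the other 14 arrays, while the median was -0.38 and 0.23 on these arrays. Their median blood marker signals, 12.7 and 12.2, were above the 10.2 to 11.4 of all other arrays. The part of these features in the results was not tested, and values without this mouse are given where they end a call, turn a sign or move a value by a large factor.

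**Figure D1:**
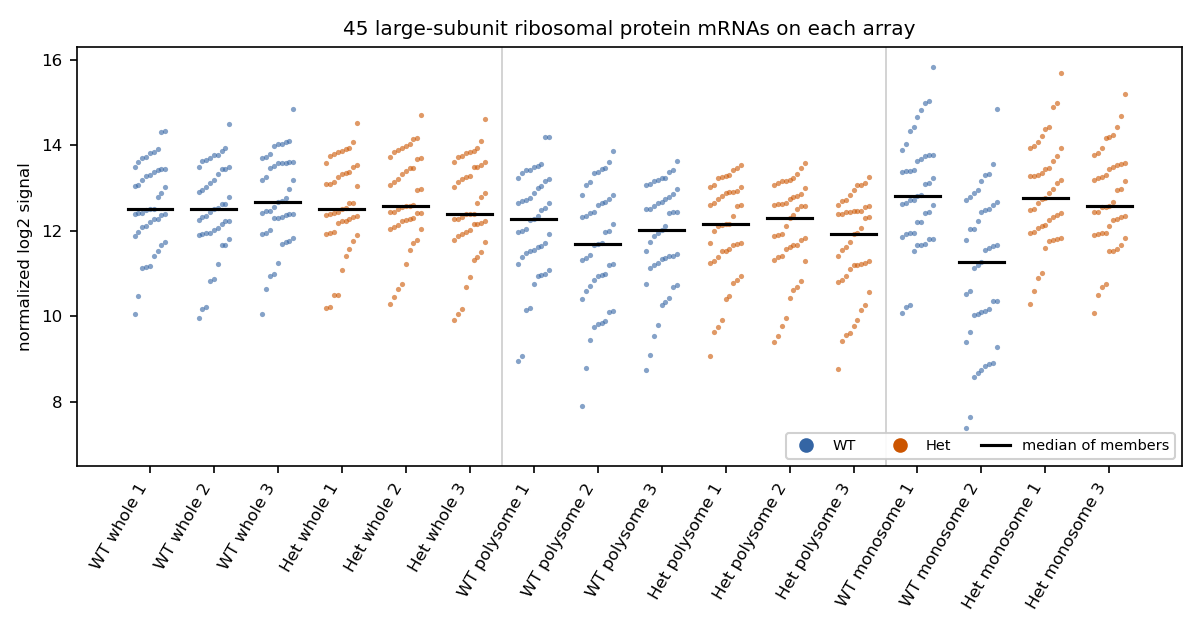
Normalized log2 signal (vertical axis) of the 45 members on each of the 16 arrays, points for members and black lines for their median, blue for WT and orange for Het. The 6 whole-muscle medians lie between 12.4 and 12.7, the 6 polysome medians between 11.7 and 12.3, and WT monosome 2 falls to 11.3 while the other monosome arrays reach 12.6 to 12.8.

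In whole muscle the members were bright and steady between mice. Their median log2 signal was 12.50, 12.51 and 12.68 in the WT mice and 12.52, 12.58 and 12.40 in the Het mice, so the genotypes overlapped. The median of all tested probes was between 6.24 and 6.28 on every array, as the normalization fixes it. In polysome RNA the members' median was 12.27, 11.70 and 12.01 in WT and 12.16, 12.29 and 11.94 in Het, below every whole-muscle array. The plot of levels by array shows the same downward step in both genotypes.

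Large-subunit mRNAs were lower in polysome RNA than in the whole muscle of the same mouse, in both genotypes. The median member differed by -0.58 on the log2 scale in WT and by -0.63 in Het, while the median of all tested probes was 0.047 and 0.12. In WT mice 42 of the 45 members had a mean below 0 and 18 fell past an adjusted p of 0.05, beside 10.3% of all 20250 tested probes called lower. In Het mice 43 had a mean below 0 and 15 fell, beside 4% of all tested probes. No member rose in either genotype, beside 10% of all tested probes called higher in WT and 3.34% in Het, and 31 of 45 were below 0 in all 6 mice.

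The per-mouse medians of the members were -0.38, -0.82 and -0.85 in WT and -0.50, -0.54 and -0.81 in Het. WT replicate 1 was the mouse nearest to 0. The WT and Het comparisons use separate mice, and 13 members fell in both, which is 72.2% of the WT list and 86.7% of the Het list. Over all tested probes the shared calls were 620, or 29.6% of the WT list and 76.5% of the Het list. The counts rested on the pairing by mouse and on few animals, while the median of the members stayed below 0 in every fit named here. Without the pairing 7 members fell in WT and 1 in Het, beside 4.46% and 1.59% of all tested probes, and with array brightness as a term 8 and 0, beside 2.99% and 0%. The methods' t-test, after adjustment, called 0 in both genotypes, beside 0%. With 75th percentile scaling 24 and 25 fell, beside 12.1% and 6.39%, and the medians were -0.91 and -1.06. The fit shares its spread over both genotypes, and leaving out a mouse gave 5 to 15 in WT. It was 10 without WT replicate 2, beside 7.35% of all tested probes, and 5 without WT replicate 3, beside 2.22%. Without Het replicate 1 it was 9 and without Het replicate 3 it was 10, beside 4.54% each. Without Het replicate 2 it was 15, beside 8.31%. In Het the count was 0 without any one of the Het mice, beside 0%, and 2 without WT replicate 3, beside 0.607%. The whole-muscle and polysome arrays of every mouse lay on opposite slides, so each ratio also holds a slide difference. With slide as a term 15 members fell in WT and 3 in Het, beside 6.66% and 1.22% of all tested probes. Fits within the 2 array slides were unpaired and set different mice against each other. Their median was -0.75 and -0.57 in WT and -0.55 and -0.68 in Het.

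Markers of other cell types moved as well between whole muscle and polysomes. The median polysome minus whole-muscle value of the 6 tested blood markers was 1.25 in WT and -0.13 in Het, and that of the 4 tested fat cell markers was 1.07 and 1.03. The 6 fibroblast markers gave 0.72 and 0.57, the 11 tested immune markers 0.35 and 0.70, and the 8 muscle fibre markers -0.43 and 0.056. Their part in the values of the members was not tested.

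**Figure D2:**
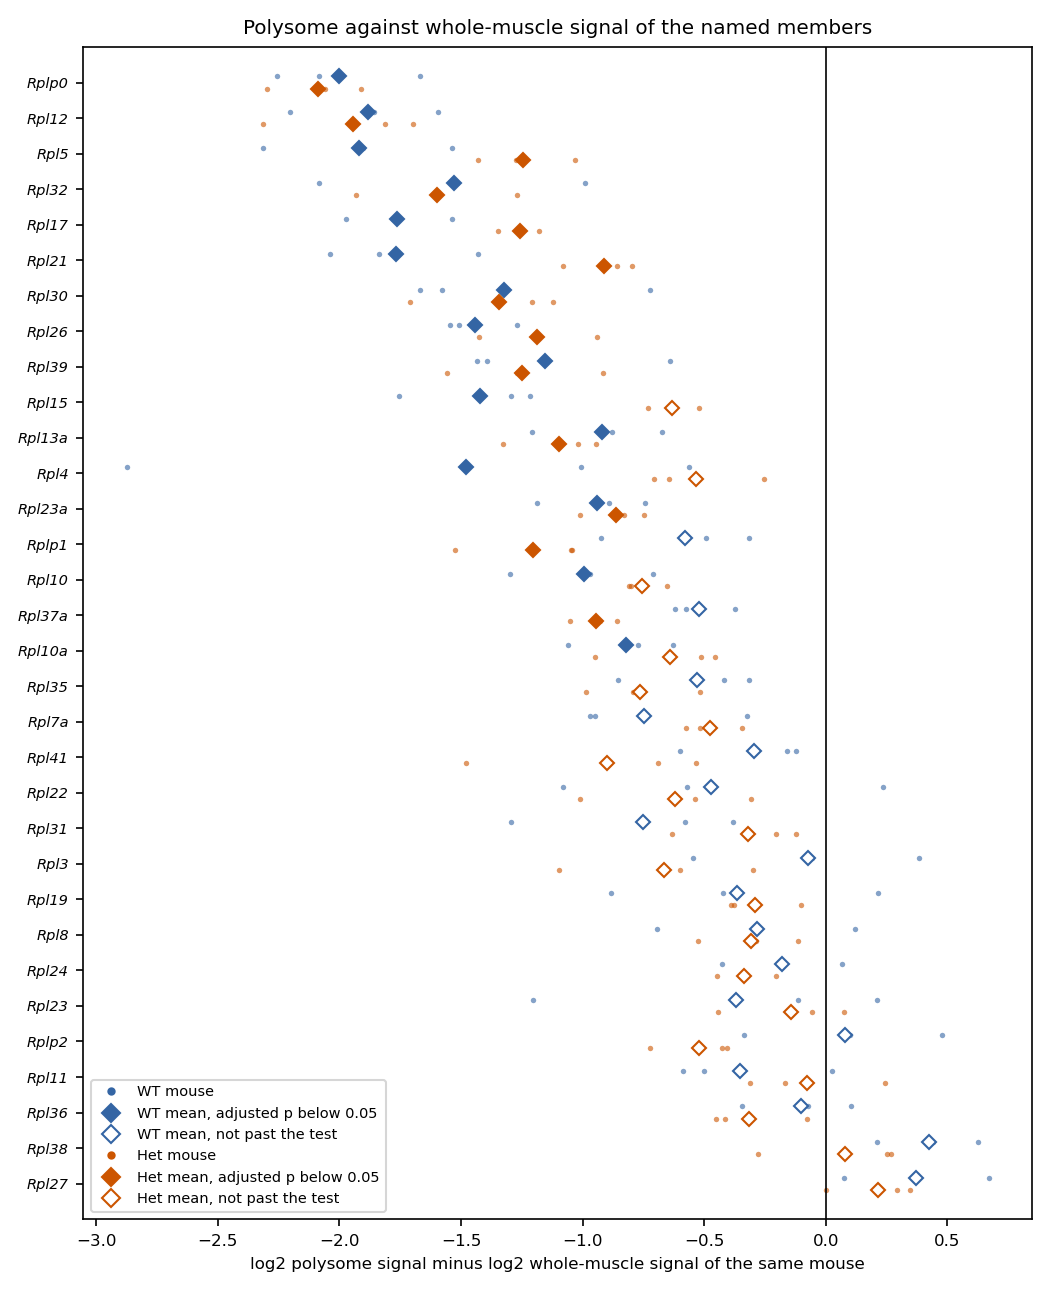
Polysome minus whole-muscle log2 signal (horizontal axis) for the members named by role or by the ends of a comparison, with small points for single mice and diamonds for the mean of the 3 WT (blue) or 3 Het (orange) mice; filled diamonds passed the test. Rplp0 and Rpl12 have the lowest means in Het and, with Rpl5, in WT, and Rpl27 and Rpl38 lie at the right of 0.

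The stalk proteins, which recruit the elongation GTPases to the ribosome, differed in which values passed the test, and the differences between them were not tested. Rplp0, the base of the stalk, was 14.33, 14.50 and 14.84 in WT whole muscle and 12.66, 12.41 and 12.59 in WT polysomes. In Het it was 14.52, 14.71 and 14.62 in whole muscle and 12.61, 12.65 and 12.33 in polysomes. Every polysome array was below every whole-muscle array by more than a log2 unit. The difference was -2.0 ± 0.22 (SE, adjusted p = 0.00452) in WT and -2.09 ± 0.22 (SE, adjusted p = 0.0136) in Het, a fold of 4.01 and 4.26 lower. This was the lowest value of any member in each genotype, though without WT replicate 2 the WT value was -1.91 and that of Rpl21 was -1.95. In both genotypes all 3 Rplp0 probes, on chromosome 5 (mm9), gave values between -2.17 and -2.0. Rplp1, one of the acidic proteins bound to Rplp0, had ratios of -0.32, -0.49 and -0.92 in WT and -1.05, -1.04 and -1.52 in Het. It fell in Het at -1.20 ± 0.23 (SE, adjusted p = 0.0306), while the WT value was -0.58 ± 0.23 (SE, adjusted p = 0.109). Its second probe was called lower in both genotypes, at -0.97 in WT (adjusted p = 0.0264) and -1.59 in Het (adjusted p = 0.0164). Its partner Rplp2 had ratios of 0.48, 0.099 and -0.34 in WT and -0.41, -0.43 and -0.72 in Het, with no call in either genotype.

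Rpl5 and Rpl11 enter the subunit together with the 5S rRNA, and both also bind the p53 regulator Mdm2 when free of ribosomes. Rpl5 passed the test in both genotypes and Rpl11 in neither, and the difference between the genes was not tested. Rpl5 was 10.49, 10.23 and 10.65 in WT whole muscle and 8.95, 7.91 and 8.75 in WT polysomes. In Het the values were 10.51, 10.44 and 10.05 in whole muscle and 9.08, 9.41 and 8.78 in polysomes. The groups did not overlap, and Rpl5 fell, at -1.92 ± 0.23 (SE, adjusted p = 0.00509) in WT and -1.24 ± 0.23 (SE, adjusted p = 0.0298) in Het. Rpl11 differed by -0.35 ± 0.23 (SE, adjusted p = 0.296) in WT and -0.079 ± 0.23 (SE, adjusted p = 0.847) in Het, and 4 of its 6 mice were below 0.

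The binding face of eIF6 on the large subunit includes Rpl23 and Rpl24. The probe that stands for each gene was not called in any comparison over all mice. Without WT replicate 2, Rpl23 was lower in polysomes than in monosomes, at -0.87 (adjusted p = 0.0043). Rpl23 polysome ratios were 0.21, -1.20 and -0.11 in the WT mice and -0.056, 0.077 and -0.44 in the Het mice, on both sides of 0. Rpl24 ratios were 0.066, -0.18 and -0.42 in WT and -0.21, -0.45 and -0.35 in Het, with means of -0.18 ± 0.20 (SE, adjusted p = 0.55) and -0.34 ± 0.20 (SE, adjusted p = 0.318). Rpl23 is also a member whose probes disagreed in size. The brightest probe gave -0.37 in WT, and a dim probe further 3′ gave -2.17 and was called lower (adjusted p = 0.0193). The value of the brightest probe was 0.048 without WT replicate 2, so its sign rested on that mouse.

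Rpl3, Rpl8 and Rpl10 lie near the catalytic centre, and Rpl10 is among the last proteins to join, after the subunit has reached the cytoplasm. Rpl10 was 13.91, 13.95 and 14.04 in WT whole muscle and 13.20, 12.65 and 13.07 in WT polysomes, and fell at -0.99 ± 0.21 (SE, adjusted p = 0.0217). In Het its value was -0.75 ± 0.21 (SE, adjusted p = 0.0708), with every one of the 3 mice below 0. Rpl8 had means of -0.28 in WT and -0.31 in Het, with no call, and its WT value was -0.080 without WT replicate 2. Rpl3 ratios were 0.38, -0.057 and -0.54 in WT, which straddled 0, and -0.30, -1.10 and -0.60 in Het, which did not.

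Of the 9 members that line or ring the exit tunnel, all 9 had means below 0 in both genotypes, 5 fell in WT and 4 in Het. Of all 45 members 42 and 43 had means below 0 and 18 and 15 fell, beside 10.3% and 4% of all tested probes called lower, and whether the tunnel group differs from the other members was not tested. Rpl17, whose loop narrows the tunnel, was 11.73, 11.68 and 11.77 in WT whole muscle and 10.20, 9.90 and 9.79 in WT polysomes. Its ratios were -1.35, -1.18 and -1.25 in Het, and it fell, at -1.76 ± 0.20 (SE, adjusted p = 0.00459) in WT and -1.26 ± 0.20 (SE, adjusted p = 0.0209) in Het. All 7 Rpl17 probes were below 0 in both genotypes, from -1.81 to -1.65 in WT. Rpl26, at the tunnel mouth, fell, at -1.44 ± 0.21 (SE, adjusted p = 0.00787) and -1.19 ± 0.21 (SE, adjusted p = 0.0254). Rpl39, a very small protein in the tunnel wall, fell, at -1.16 ± 0.25 (SE, adjusted p = 0.0234) and -1.25 ± 0.25 (SE, adjusted p = 0.0358). Rpl23a, which with Rpl35 makes the docking site of the signal recognition particle, fell, at -0.94 ± 0.20 (SE, adjusted p = 0.0232) and -0.86 ± 0.20 (SE, adjusted p = 0.0496). Rpl35 itself had means of -0.53 ± 0.22 (SE, adjusted p = 0.123) and -0.76 ± 0.22 (SE, adjusted p = 0.0757).

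Rpl4, the other protein at the tunnel constriction, had the largest SE of the members in these ratios. Its ratios were -0.56, -2.88 and -1.01 in WT and -0.64, -0.25 and -0.71 in Het. The lowest value belongs to WT replicate 2, the mouse whose polysome array stood apart. Rpl4 passed the test in WT at -1.48 ± 0.42 (SE, adjusted p = 0.0479) and not in Het at -0.53 ± 0.42 (SE, adjusted p = 0.439). Without WT replicate 2 its WT value was -0.79 and the call was lost (adjusted p = 0.0835). Rpl10, Rpl10a, Rpl13a, Rpl23a, Rpl30 and Rpl39 also lost their WT call without this mouse, with values between -1.16 and -0.80 and adjusted p between 0.0545 and 0.0746. Rpl19, Rpl22 and Rpl31, which sit around the outer end of the tunnel, were not called by the probe that stands for the gene, with WT means of -0.36, -0.47 and -0.75 and Het means of -0.29, -0.62 and -0.32. Their WT values without WT replicate 2 were -0.66, -0.17 and -0.47, again with no call. The other 3 Rpl31 probes were called lower in WT, at -0.84 and -1.32 for 2 of them, and the one at -1.32 was called lower in Het too, at -0.97. The third was well above background on 9 of 16 arrays and is given no difference.

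Rpl12 and Rpl32 were near the low end of the range, and Rpl13a and Rpl10a were in its middle. Rpl12, which sits at the foot of the stalk, was 13.08, 12.62 and 12.98 in WT whole muscle and 11.49, 10.42 and 11.12 in WT polysomes, and 13.06, 13.08 and 12.89 against 11.24, 11.38 and 10.58 in Het. It fell, at -1.88 ± 0.23 (SE, adjusted p = 0.00522) in WT and -1.94 ± 0.23 (SE, adjusted p = 0.0137) in Het. Rpl32 fell, at -1.53 ± 0.27 (SE, adjusted p = 0.0144) in WT and -1.60 ± 0.27 (SE, adjusted p = 0.0237) in Het. Rpl13a, which also takes part in the repression of inflammatory mRNAs outside the ribosome, fell, at -0.92 ± 0.21 (SE, adjusted p = 0.0273) and -1.10 ± 0.21 (SE, adjusted p = 0.0333). Rpl10a fell in WT at -0.82 ± 0.21 (SE, adjusted p = 0.0375), and its Het value was -0.64 ± 0.21 (SE, adjusted p = 0.107).

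Rpl38 and Rpl27 were the members with means above 0 in both genotypes. Rpl38, a protein needed for the translation of certain Hox mRNAs in mouse embryos, was 12.79, 12.63 and 12.78 in WT whole muscle and 13.42, 13.07 and 12.99 in WT polysomes. Its ratios were 0.63, 0.44 and 0.21 in WT and 0.27, 0.25 and -0.28 in Het, so that 5 of 6 mice were above 0. Its means were 0.43 ± 0.22 (SE, adjusted p = 0.197) in WT and 0.08 ± 0.22 (SE, adjusted p = 0.836) in Het, neither past the test, and its second probe gave 0.36 and 0.084. Rpl27 had means of 0.37 ± 0.22 (SE, adjusted p = 0.245) and 0.21 ± 0.22 (SE, adjusted p = 0.547), and its second, dimmer probe gave -0.52 and -0.44, so the probes of this gene disagree in sign.

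**Figure D3:**
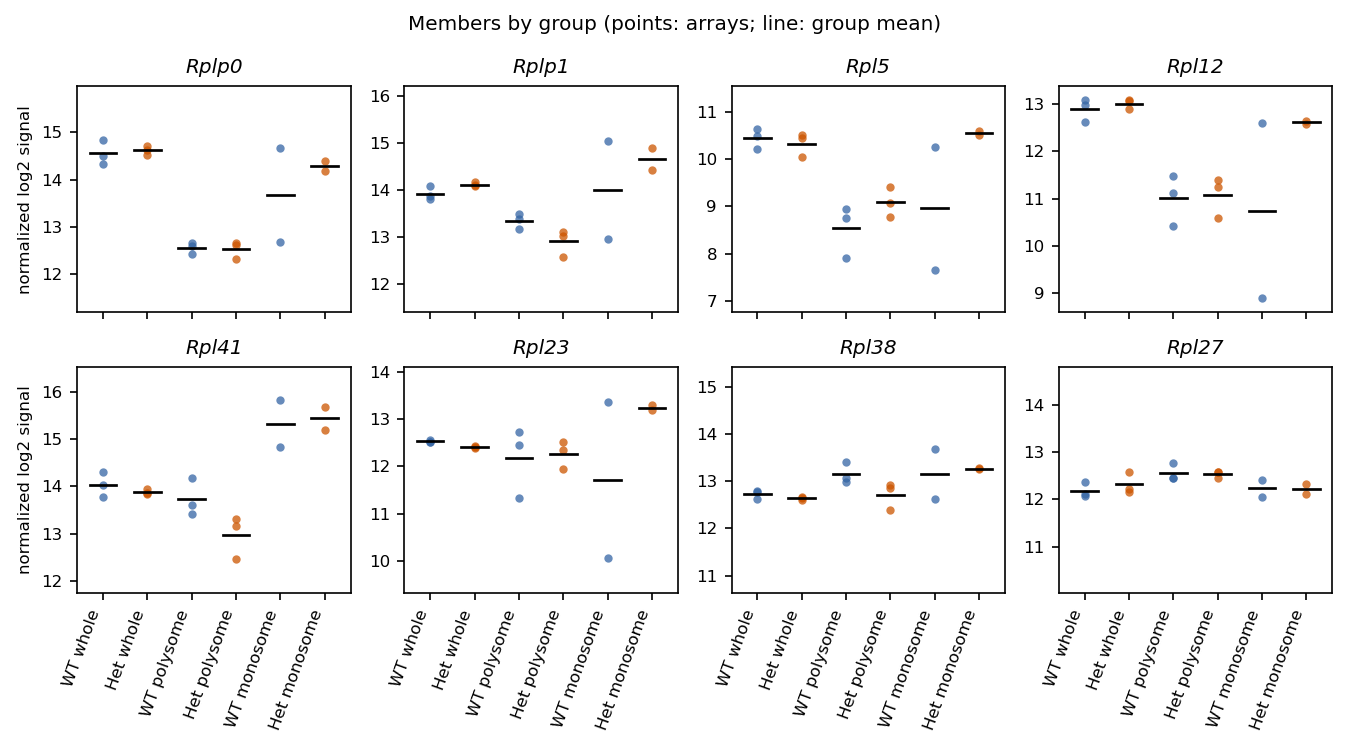
Normalized log2 signal (vertical axis) of 8 members in the 6 groups, points for arrays and black lines for group means; all panels span the same number of log2 units. Rplp0, Rpl5 and Rpl12 step down from whole muscle to polysome in both genotypes, Rpl38 and Rpl27 do not, and Rpl41 is highest in monosome RNA.

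The start-site letters were set beside the polysome values. These counts stand beside the 10.3% of all tested probes called lower in WT and 4% in Het, and beside 18 and 15 of all 45 members. Of the 7 genes printed above, 1 fell in WT and 0 in Het, Rpl15 being the one that fell at -1.42 ± 0.21 (SE, adjusted p = 0.00873). Rpl38, whose start reads C followed by 7 pyrimidines, was above 0 in both genotypes. Of the 16 genes with the letters within 5 bases, 4 fell in WT and 3 in Het. Of the 17 matched genes without them, 7 fell in WT and 4 in Het. RefSeq starts may be some bases away from the starts used in muscle, and a missing match says only that the letters are not in this window.

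Most genes had several probes, and they mostly shared their direction. Of 36 genes with at least 2 tested probes, 35 had all of them on the same side of 0 in the WT comparison, the exception being Rpl27. Over all 107 tested probes of the members, 54 fell and 0 rose in WT, and 38 fell and 0 rose in Het. Of all probes tested, 10.3% were called lower and 10% higher in WT, and 4% and 3.34% in Het. Sizes differed more than signs. The 3 Rpl26 probes ranged from -2.58 to -1.44 in WT and the 3 Rpl30 probes from -1.66 to -0.25. Ribosomal protein genes have near-identical processed copies elsewhere in the genome, so the signal of a member may include transcripts of copies, which was not tested here.

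Genes that work with the members were read in the same comparisons. Of the 33 small-subunit genes tested (Rps genes and Fau), 13 fell and 1 rose in WT, and 14 fell and 0 rose in Het, beside the 10.3% and 4% of all tested probes called lower, with medians of -0.68 and -0.83. The gene that rose was Rps4l, an Rps4 paralog, at 1.32 ± 0.34 (SE, adjusted p = 0.0367). Of 17 other TOP mRNAs tested, which encode elongation factors, initiation factor subunits and the like, 7 fell in WT and 5 in Het, beside the same shares, with medians of -0.51 and -0.37 and no rise. Tpt1, a classical TOP mRNA, fell, at -2.66 ± 0.33 (SE, adjusted p = 0.00522) and -2.35 ± 0.33 (SE, adjusted p = 0.0163), and Eif3e, a subunit of initiation factor 3, at -3.21 ± 0.22 (SE, adjusted p = 0.00312) and -1.68 ± 0.22 (SE, adjusted p = 0.0155). Eef1a1, the main elongation factor, gave -0.36 and -0.44 without a call.

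The 28 tested genes for factors that assemble the large subunit had medians of -0.0021 in WT and 0.27 in Het. Of these 4 rose and 4 fell in WT, beside the 10% and 10.3% of all tested probes called higher and lower, and limma called 0 in Het. In Het 7 of the 28 had an unadjusted p under 0.05, beside 28.9% of all tested probes. Eif6 itself, on this list, rose in WT polysomes relative to whole muscle at 1.05 ± 0.24 (SE, adjusted p = 0.0265), and its Het value was 0.66 ± 0.24 (SE, adjusted p = 0.128). Of the 7 related genes on a list of paralogs and the like, 5 passed the filter, while Rpl10l and Rpl39l, mostly known from testis, were well above background on 1 and 0 arrays. Rpl22l1, the paralog of Rpl22, fell in polysomes, at -1.76 ± 0.34 (SE, adjusted p = 0.0176) in WT and -1.45 ± 0.34 (SE, adjusted p = 0.0487) in Het.

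The members were next compared between genotypes, to ask whether one functional copy of Eif6 changed them. In whole muscle no member was called by limma, beside 0% of all tested probes, and 0 of 45 had an unadjusted p under 0.05, beside 5.73%. The median difference Het minus WT was 0.0039, with members from -0.43 to 0.20 and standard errors between 0.22 and 0.83. Rpl3 was lowest at -0.43 ± 0.56 (SE, adjusted p = 1.0), with 11.17, 10.16 and 10.99 in WT and 10.21, 10.64 and 10.17 in Het, which overlap, and its difference was -0.74 without WT replicate 2. Rpl37a, Rpl30 and Rplp1 were highest at 0.20, 0.20 and 0.19. Rpl21 at -0.34 and Rpl11 at -0.17 completed the low end.

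The median moved with the handling of brightness, which differed between the genotypes. It was 0.19 when arrays were scaled by their 75th percentile and 0.41 with brightness as a term, with no call in either. Within slide 1 it was -0.13 and within slide 2 it was 0.059. The Het minus WT medians of immune markers (-1.35, 10 of 11 tested markers below 0) and of blood markers (0.060, 2 of 6 below 0) stand beside the median of the members, and their part was not tested.

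In polysome RNA no member was called, beside 0% of all tested probes, and 1 of 45 had an unadjusted p under 0.05, beside 7.52%. The median difference was 0.012 and the members ran from -1.02 to 0.85. Blood markers had a median Het minus WT of -1.17, with 6 of 6 below 0, and immune markers of -0.94, with 11 of 11 below 0, and their part in the values below was not tested. The member with the small p was Rpl41, a peptide of a few basic residues at the subunit interface. It was 14.19, 13.61 and 13.43 in WT and 13.30, 13.16 and 12.46 in Het, without overlap, a difference of -0.77 ± 0.33 (SE, adjusted p = 0.646). The exact permutation test gave p = 0.1, two-sided, the smallest that 3 against 3 allows.

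Rpl3 had the lowest value, -1.02 ± 0.56 (SE, adjusted p = 0.68), from 11.55, 10.11 and 10.44 in WT and 9.92, 9.55 and 9.57 in Het. Its other probe gave -0.91. Its striated-muscle paralog Rpl3l was 10.90, 11.77 and 11.72 in WT and 12.26, 12.35 and 12.30 in Het, the higher group here being Het, at 0.84 ± 0.26 (SE, adjusted p = 0.585). Neither group of this pair overlapped, and neither difference passed the test. After Rpl3 and Rpl41 the lowest was Rplp2 at -0.55 ± 0.32 (SE, adjusted p = 0.683). At the other end were Rpl4 at 0.85, Rpl15 at 0.67 and Rpl5 at 0.55, and the WT values of Rpl4, 10.97, 8.80 and 10.74, include the low WT replicate 2. Without that mouse the differences were 0.16 for Rpl4, 0.50 for Rpl15, 0.24 for Rpl5 and -1.33 for Rpl3, and none was called.

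Loading, the polysome minus whole-muscle ratio of each mouse, asks whether the genotypes put different shares of these transcripts on polysomes. No member was called, beside 0% of all tested probes, and 2 of 45 had an unadjusted p under 0.05, beside 17%. The median Het minus WT was -0.023, with 21 members above 0 and 24 below. Blood markers had a median loading difference of -1.22, with 5 of 6 below 0, and immune markers of 0.016, with 5 of 11 below 0, and their part was not tested. Rpl21 had ratios of -2.04, -1.43 and -1.84 in WT and -0.86, -0.80 and -1.08 in Het, a difference of 0.86 ± 0.30 (SE, adjusted p = 0.226). Rpl15 had ratios of -1.29, -1.75 and -1.22 in WT and -0.65, -0.52 and -0.73 in Het, a difference of 0.79 ± 0.30 (SE, adjusted p = 0.249). In both genes every Het mouse was above every WT mouse, and the exact permutation p of 0.1, two-sided, is the smallest possible. Every Het mouse was also above every WT mouse for Rpl5 and Rpl17, and below every WT mouse for Rplp1, Rplp2 and Rpl37a. The share of all tested probes that separate in this way is not given here.

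Rpl4 had the highest loading difference, 0.95 ± 0.60 (SE, adjusted p = 0.453), with overlapping mice. Without WT replicate 2 it was 0.25, and Rpl21 was highest at 1.03 (adjusted p = 0.149). At the low end the acidic stalk proteins and Rpl41 had the lowest values, Rplp1 at -0.63 ± 0.32 (SE, adjusted p = 0.37), Rpl41 at -0.61 ± 0.36 (SE, adjusted p = 0.43) and Rplp2 at -0.60 ± 0.33 (SE, adjusted p = 0.393). Without WT replicate 2 Rpl3 was lowest at -0.59, followed by Rplp1 at -0.57, Rplp2 at -0.56 and Rpl41 at -0.53. The eIF6-binding pair was not called, Rpl23 at 0.23 ± 0.43 (SE, adjusted p = 0.797) and Rpl24 at -0.16 ± 0.29 (SE, adjusted p = 0.795), and Rpl23 turned to -0.19 without WT replicate 2. The median was -0.13 without WT replicate 2 and 0.25 with brightness as a term. Within the 2 slides no mouse has both its arrays, so those fits set different mice against each other without pairing. Their medians were 0.29 and -0.10. No member was called in any of these fits.

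**Figure D4:**
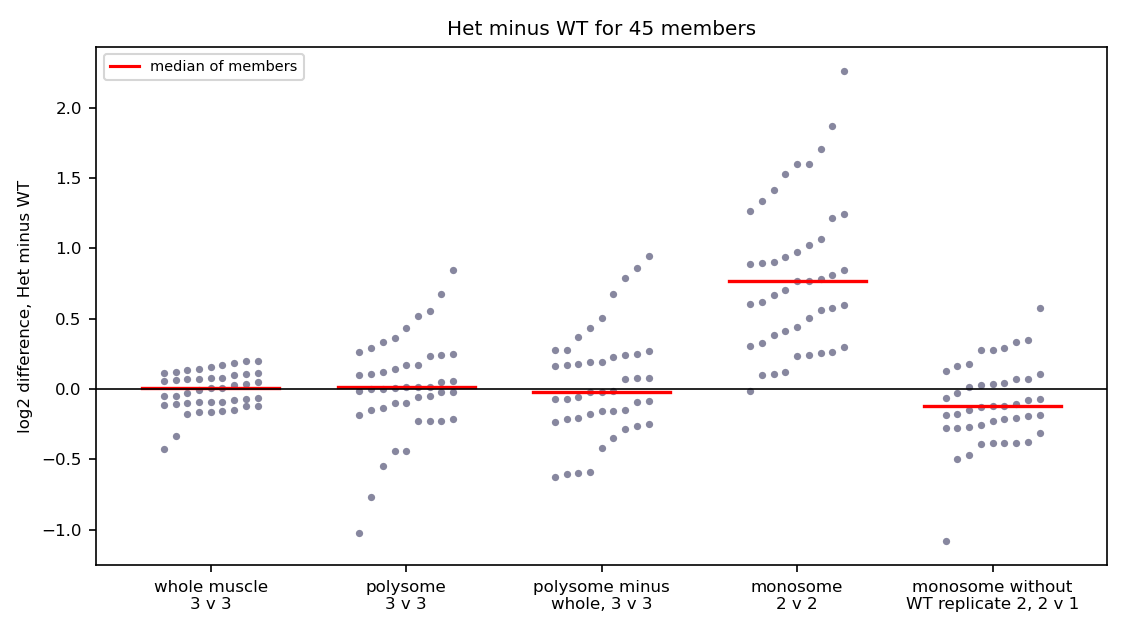
Het minus WT log2 difference (vertical axis) of the 45 members, points for members and red lines for the median, in whole muscle, polysome, polysome minus whole muscle, monosome, and monosome without WT replicate 2. The medians are 0.0039, 0.012, -0.023, 0.76 and -0.12.

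Monosome RNA was the RNA kind with the highest members' median in 3 of the 4 mice that gave it. Their median monosome minus whole-muscle value was 0.22 in WT replicate 1, 0.19 in Het replicate 1 and 0.15 in Het replicate 3, and -1.29 in WT replicate 2. Their median polysome minus monosome value was -0.72, -0.79 and -1.07 in the same 3 mice and 0.60 in WT replicate 2. In the 3 mice 43, 43 and 44 of the 45 members were lower in polysomes than in monosomes, and in WT replicate 2 it was 7. The small-subunit medians followed, at -0.94, -1.06, -1.26 and 0.54.

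In the test of polysome against monosome RNA over both genotypes, 10 of 45 members were lower and none higher, beside 9.07% of all tested probes called lower and 16.9% called higher. The median member differed by -0.45 and the median tested probe by 0.20. Muscle fibre markers had a median of 0.69, with 7 of 8 above 0, and fat cell markers of 1.70, with 3 of 4 called higher, and their part was not tested. Without WT replicate 2, 34 of the 45 were called lower, beside 13.4% of all probes tested in that fit, and the median was -0.87. Without WT replicate 1, which leaves WT replicate 2 as the WT monosome, 9 were called, beside 16.4%, and the median was 0.0097. The count was 5 without WT replicate 3, 2 without Het replicate 1 and 2 without Het replicate 3. Beside these, 4.34%, 2.82% and 4.24% of all probes tested in those fits were called lower. Within slides the median was -0.95 on slide 1 and 0.065 on slide 2, which holds WT monosome 2. The methods' t-test, adjusted by Benjamini-Hochberg, called 5 members, beside 2.86% of all tested probes. These fits did not pair the arrays by mouse. With the mouse as a block 12 members were called lower, beside 12.7%, and the median was -0.52.

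Rpl41 had the lowest of the 10 values, with monosome levels of 15.82 and 14.84 in WT and 15.68 and 15.21 in Het against polysome levels of 14.19, 13.61 and 13.43 and 13.30, 13.16 and 12.46. All monosome arrays were above all polysome arrays, and the difference was -2.03 ± 0.26 (SE, adjusted p = 0.000436). In each of the 4 mice Rpl41 was also higher in monosome than in whole-muscle RNA, by 1.52, 1.08, 1.85 and 1.27. Its coding sequence is among the shortest known.

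The whole stalk was on the list. Rplp0 differed by -1.43 ± 0.31 (SE, adjusted p = 0.00565), Rplp1 by -1.20 ± 0.32 (SE, adjusted p = 0.0172) and Rplp2 by -0.93 ± 0.25 (SE, adjusted p = 0.0179). Rplp1 was 15.04 and 12.95 in WT monosomes and 14.89 and 14.43 in Het monosomes, the lowest of these being WT monosome 2. Without WT replicate 2 the differences were -1.84 for Rplp0, -1.69 for Rplp1 and -1.25 for Rplp2. Per mouse the Rplp1 polysome minus monosome values were -1.54, 0.43, -1.86 and -1.85 in WT replicates 1 and 2 and Het replicates 1 and 3. Others of the 10 included Rpl37a, Rpl13, Rpl13a, Rpl8 and Rpl35a, from -1.16 to -0.78. Rplp0 and Rpl13a were among the members called lower in polysomes in the WT, the Het and the monosome comparison.

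Rpl27 was the member with the highest polysome minus monosome value, 0.32 ± 0.18 (SE, adjusted p = 0.181), and was above 0 in all 4 mice, at 0.37, 0.40, 0.25 and 0.34. Rpl36 and Rpl7a followed at 0.087 and 0.053, and turned to -0.087 and -0.28 without WT replicate 2. None of these was called. Of the other lists, 19 of the 28 assembly-factor genes were higher in polysomes than in monosomes and 0 were lower, with a median of 0.98, beside the 16.9% of all tested probes called higher. Of the 5 tested paralogs 3 were called higher in polysomes, Rpl3l at 0.65, Rpl36al at 0.76, and Rpl7l1, which is given no difference since its probe was well above background on 9 of 16 arrays only.

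**Figure D5:**
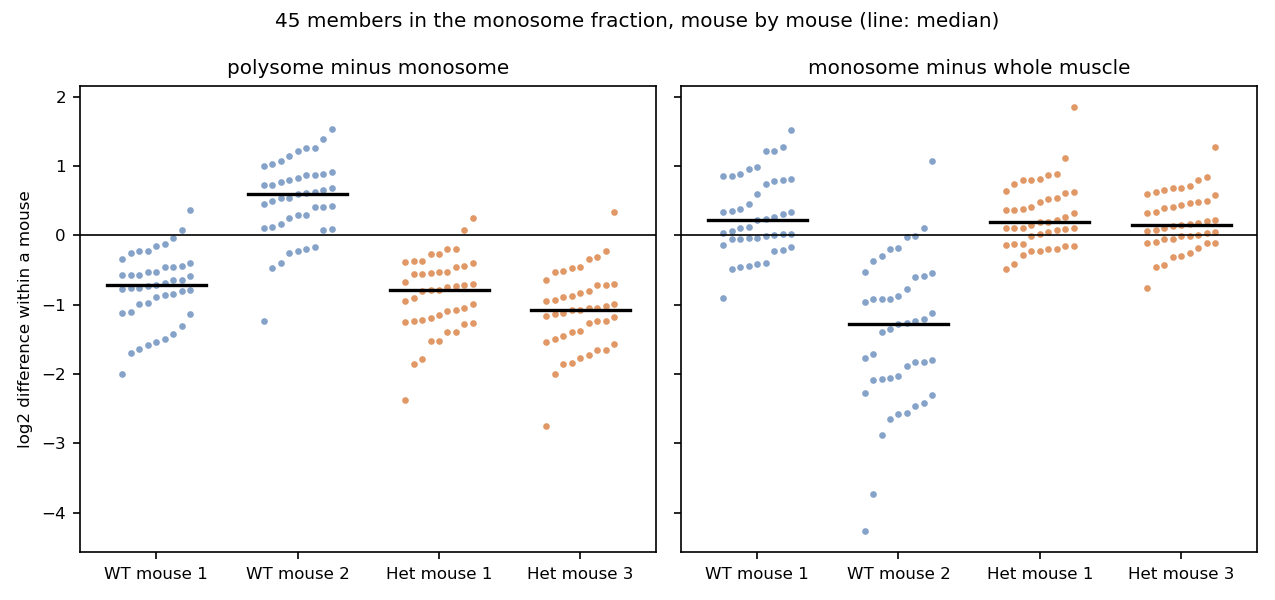
Log2 differences within each of the 4 mice that gave monosome RNA (vertical axis), polysome minus monosome on the left and monosome minus whole muscle on the right, points for the 45 members and lines for their median. WT mouse 2 lies on the opposite side of 0 from the other 3 mice in both panels.

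The genotype comparison in monosome RNA rested on 2 mice against 2, and its outcome turned on WT replicate 2. No member was called, beside 0.499% of all tested probes, and 10 of 45 had an unadjusted p under 0.05, all higher in Het, beside 33% of all tested probes. The median difference was 0.76 and 44 of 45 members were above 0, against a median of 0.099 over all tested probes. Blood markers had a median of -0.89, with 6 of 6 below 0, and immune markers of -1.45, with 11 of 11 below 0, and their part was not tested. Rpl4, Rpl12 and Rpl30 were highest. Rpl12 was 12.60 and 8.89 in WT and 12.64 and 12.58 in Het, and Rpl30 was 11.67 and 8.92 and 12.08 and 11.92, so WT replicate 1 lay within 0.5 of the Het arrays and WT replicate 2 lay more than 2 log2 units below. Rpl27, Rpl19 and Rpl41 were lowest at -0.011, 0.099 and 0.11.

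Without WT replicate 2 the median was -0.12 and no member was called, with the single WT array assumed to vary like the other groups. Without WT replicate 1 the median was 1.61 and 38 members were called, beside 53.5% of all probes tested in that fit. On slide 1, which holds WT replicate 1 and Het replicate 1, the median was -0.048 with no call, and on slide 2, which holds WT replicate 2 and Het replicate 3, it was 1.54 with 27 called, beside 40.4% of all tested probes. Each slide sets 1 WT array against 1 Het array, with the spread taken from the other groups, so these calls hold no replicate of either genotype. The smallest exact permutation p that 2 against 2 allows is 0.333, two-sided, so no single member could pass such a test here.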

How the data were processed

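Cy3-labelled RNA was hybridised to 1-colour Agilent mouse arrays (60-base probes). Spot intensities were deposited as Feature Extraction 11.0.1.1 output, after background subtraction and before any scaling between arrays. The authors' processed table holds log2 values and was used as an alternative. Gene names and positions (mm9) are those of the array design. Spots marked as outliers were left out, spots of a probe averaged, and log2 processed signals quantile-normalized over the 16 arrays in R 4.3.3. Testing required that a group had all its arrays well above background for the probe, and 63 probes with missing values were dropped, which left 20250. Whole-muscle, polysome and monosome groups were compared with limma 3.58.1 in 1 fit of 6 groups. Loading and polysome against whole muscle used the ratio of each mouse, since the design description ties every RNA kind to the same animals. Same-mouse deviations from the group mean correlated at 0.046 to 0.48 between whole muscle and polysome over all tested probes. Over the members alone it was -0.11 to 0.25, below 0 in 2 of 6 mice. Between polysome and monosome they correlated at 0.35 to 0.66 over all tested probes and at 0.39 to 0.82 over the members. The main fit of polysome against monosome was not paired by mouse. P-values were adjusted by Benjamini-Hochberg over all tested probes, with 0.05 as threshold. Polysome values are relative to the other transcripts of the array, since normalization removes any shift shared by all. Arrays differ in brightness and their number limits the precision.

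Named members were the stalk, 5S, eIF6-binding, late-joining and exit-tunnel proteins, Rpl41, Rpl13a, Rpl38 and Rpl10a, and the 3 highest and 3 lowest members of each comparison. Others (Rpl13, Rpl8, Rpl35a, Rpl37a in the fraction test, single genes of the lists) were named because a count of calls turned on them. The members and lists were chosen with earlier results of these data known. The fits were tested on simulated data. Start-site sequences are RefSeq's, GRCm38.p6. Some single genes are not reported here.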

Additional observations from a re-analysis of the deposited data

How the results depend on the processing

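The Het versus WT comparisons in whole muscle, polysomes and loading called 0 members in each alternative run. Over all tested probes the share past an adjusted p of 0.05 was at most 0.534% in whole muscle and 0.0274% in polysomes. In loading the share was 1.81% with normexp and 2.18% in the authors' table. Among probes well above background on all arrays it was 7.16%, and otherwise 0%. The medians of the members moved as follows. In whole muscle the median was 0.19 with 75th percentile scaling, -0.10 with slide as a term, -0.13 on slide 1 and 0.41 with brightness as a term. In polysomes it was -0.13 with brightness as a term, 0.16 on slide 1, 0.12 with slide as a term and -0.078 to 0.16 when leaving out a mouse. In loading it was 0.25 with brightness as a term, and 0.29 on slide 1, where the arrays could not be paired by mouse. In monosomes 1 member was called in the authors' table, beside 4.05% of all tested probes. By the study's threshold it was 10 of the 45 members, beside 5795 of all 20250 tested probes. On slide 2 (1 array against 1) 27 were called, and on slide 1 the median was -0.048. Leaving out a mouse gave 0 to 38 calls and medians of -0.12 to 1.61. The counts of 27 and 38 each rest on a single WT monosome array.

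For WT polysomes against whole muscle, 28 members were called lower with normexp background (12% of all tested probes) and 29 in the authors' table (12.8%). It was 8 with brightness as a term (2.99%) and 0 by the methods' t-test after adjustment (0%). Leaving out a mouse gave 5 to 15 (2.22% to 8.31%). The median was -0.91 with 75th percentile scaling. For Het, 25 were called with 75th percentile scaling (6.39% of all tested probes), 27 with normexp (7.23%) and 5 with no filter (0.429%). It was 23 with probes well above background on all arrays (15.6%), 23 in the authors' table (7.36%) and 3 with slide as a term (1.22%). With brightness as a term and by the t-test it was 0 (0% in both). Leaving out a mouse gave 0 to 17 (0% to 5.78%). The Het median was -1.06 with 75th percentile scaling and -0.46 with brightness as a term. Within a slide no mouse had both its arrays, so the pairing was lost, and each genotype had a single array of 1 RNA kind. No count is given for those fits. For the other settings the cause was not tested.

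For polysomes against monosomes, 0 members were called on slide 1 (0% of all tested probes, median -0.95) and 3 on slide 2 (11.4%). It was 6 with brightness as a term (3.61%, median -0.93) and 5 by the t-test (2.86%). Leaving out a mouse gave 2 to 34, from 2 without Het replicate 1 (2.82%) to 34 without WT replicate 2 (13.4%). The median turned to 0.065 on slide 2 and to 0.0097 without WT replicate 1, and was -0.87 without WT replicate 2.

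Without the replicate block, that is without the pairing by mouse, 7 members were called lower in WT (4.46% of all tested probes) and 1 in Het (1.59%). With the replicate block 12 were called in polysomes against monosomes (12.7% of all tested probes, median -0.52). It gave 0 in each Het versus WT comparison, beside 0.133% of all tested probes in monosomes and 0% in the others. No named member reversed its sign past the test under any alternative. Dim arrays and 2 or 3 mice a group limit the precision.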
